A study of Ambystoma mexicanum with 5 samples.

Results

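The proteins of the mitochondrial ribosome (mitoribosome) that are named MRPL, in the large subunit, and MRPS, in the small subunit, were followed at the RNA level in axolotl kidneys injured with gentamicin. Their genes were found by name in the deposited table. Of the 100758 genes in the table, 84 gene models carried an MRPL or MRPS name, and the 78 of these with at least 10 read counts summed over the 5 libraries were taken as members. They comprise 47 models of the large subunit and 31 of the small subunit, with 75 gene symbols. Just under the minimum lay 1 model of MRPL4 and 1 of MRPS25, each with 6 counts in all, and the members with the fewest counts were MRPL42 with 34 counts and MRPS22 with 45. The other 4 excluded models, named MRPL9, MRPL51, MRPS18C and MRPS22, had 1 count or none.

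RNA was sequenced from kidneys of 5 axolotls (Ambystoma mexicanum, a salamander), 2 with gentamicin-induced injury, numbered 1 and 3, and 3 untreated controls, numbered 1 to 3. The titles of the gentamicin libraries carry the code Gen14, whose number the labels do not explain. The labels state no strain, age, dose or time after injury, and the study's stated subject is kidney regeneration. Gentamicin is an aminoglycoside antibiotic that acts on the bacterial ribosome and accumulates in cells of the proximal tubule.

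The mitoribosome translates the few proteins encoded in mitochondrial DNA, all of them core parts of the respiratory chain or of ATP synthase in vertebrates. Its RNAs come from mitochondrial DNA, whereas all of its proteins are encoded in the nucleus, made in the cytosol and imported. Many of them descend from proteins of the bacterial ribosome and the others were added during the evolution of mitochondria. The proximal tubule is among the tissues richest in mitochondria, since its uptake of filtered solutes depends on respiration.

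The libraries held 15163723 and 16404879 counts in gentamicin kidneys and 13674201, 15087765 and 14884904 in control kidneys. Spearman correlations between libraries were 0.9648 to 0.9812 within groups and 0.8809 to 0.9027 between them. As a check of tissue and injury, the models of proximal tubule markers summed to 1549 and 1648 CPM (counts relative to the library's total after TMM scaling, which sets the libraries to a common level for most genes) in gentamicin kidneys, against 17595, 17208 and 14828 CPM in control kidneys. The macrophage markers summed to 2147 and 1822 CPM in gentamicin kidneys and to 383, 444 and 286 CPM in control kidneys, with CD163 at 0 counts in every library. The proliferation markers summed to 1428 and 1537 CPM in gentamicin kidneys and to 823, 727 and 974 CPM in control kidneys. Markers of interrenal cells and blood, pooled in a single list, summed to 430 and 555 CPM in gentamicin kidneys and 687, 744 and 1004 CPM in control kidneys. In the test given below, 32 of 35 proximal tubule models were called lower and 1 higher. Of 16 macrophage models 12 were called higher and 1 lower. Of 20 proliferation models 13 were called higher and 0 lower, and of 7 interrenal or blood models 3 were called lower and 1 higher. Log2 fold changes in that last list ran from -1.16 to 8.03. Among all genes tested 13.4% were lower and 13.3% higher. These shifts in marker RNA run alongside every result given here, and their part in the results was not tested. In bulk kidney RNA, fewer cells of a type and less RNA per cell cannot be told apart.

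The members fell modestly or were not called in gentamicin kidneys, and none of those tested changed by as much as 2-fold. Of the 76 members tested with edgeR's quasi-likelihood test (Benjamini-Hochberg adjusted p under 0.05 over 22006 genes), 23 were lower in gentamicin kidneys, none was higher and 53 were not called. At an unadjusted p under 0.05 the counts were 36 lower and 0 higher, and the share of all genes at that threshold is not given here. DESeq2 called 24 members lower (30.8%, beside 13.5% of all genes) and 0 higher (beside 12.5%). By the adjusted edgeR test 13.4% of all genes were lower and 13.3% higher. The share of members called lower in that test, 30.3%, was thus above the background and the share called higher below it. This excess was not seen without gentamicin library 1 (7.69% of members lower, beside 7.48% of all genes), without gentamicin library 3 (3.90% beside 7.02%) or under scaling by total counts (5.26% beside 8.61%). The median log2 fold change of the members was -0.31 with quartiles of -0.49 and -0.18, beside 0.01 for all genes tested, but under scaling by total counts the members' median was 0.01, beside 0.33 for all genes.

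The direction of the members as a group therefore depended on how the libraries were scaled. Under TMM, 66 of the 76 members had a negative log2 fold change and 10 a positive one, whereas under scaling by total counts 36 were negative and 40 positive. All genes shifted up by a median of 0.32 on the log2 scale between the scalings. Under total counts 4 members remained called lower (MRPS7, MRPL9, MRPL48 and MRPS35) and MRPL17, MRPL55 and MRPS24 were called higher, beside 8.61% of all genes called lower and 28.1% called higher.

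The largest fall was 1.8-fold and the largest positive difference, which was not called, was 1.22-fold. The 95% interval of the log2 fold change lay within 2-fold in both directions for 68 of the 76 members (89.5%), beside 46.3% of all genes tested and 74.0% of the 6122 genes at the level of the middle 80% of members. The 23 called members were between 1.31-fold and 1.8-fold lower, with adjusted p-values between 0.00251 and 0.0422. Under TMM the gentamicin and control libraries did not overlap for 47 members (61.8%). Taken over both directions this share was near its background of 55.3% of all genes and 63.2% of those at the members' level. By direction it was not under TMM, since 46 of the 47 were lower in gentamicin kidneys and 1 was higher. Overlap of single members was not computed under total counts. Among all 22006 genes 5872 were lower without overlap and 6292 higher. At the members' level these numbers were 1746 and 2125 of the 6122 genes. Of the genes at that level 15.5% were called lower and 17.1% called higher, and their median log2 fold change was 0.05.

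The number of calls leaned on both gentamicin libraries. Without gentamicin library 1 there were 6 members called lower, and without gentamicin library 3 there were 3, shares near or below those of all genes given above. Without control library 1, 2 or 3 the counts were 15, 23 and 19, or 19.7%, 30.3% and 25% of the 76 members. In the same order, 2963 of 21654, 2626 of 21592 and 2778 of 21537 of all genes were lower, a smaller share each time. MRPL9 alone was called in each of these 5 fits, and 15 of the 23 were called in neither fit that lacked a gentamicin library. The median of the members stayed between -0.36 and -0.28 in the same 5 fits.

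**Figure D1:**
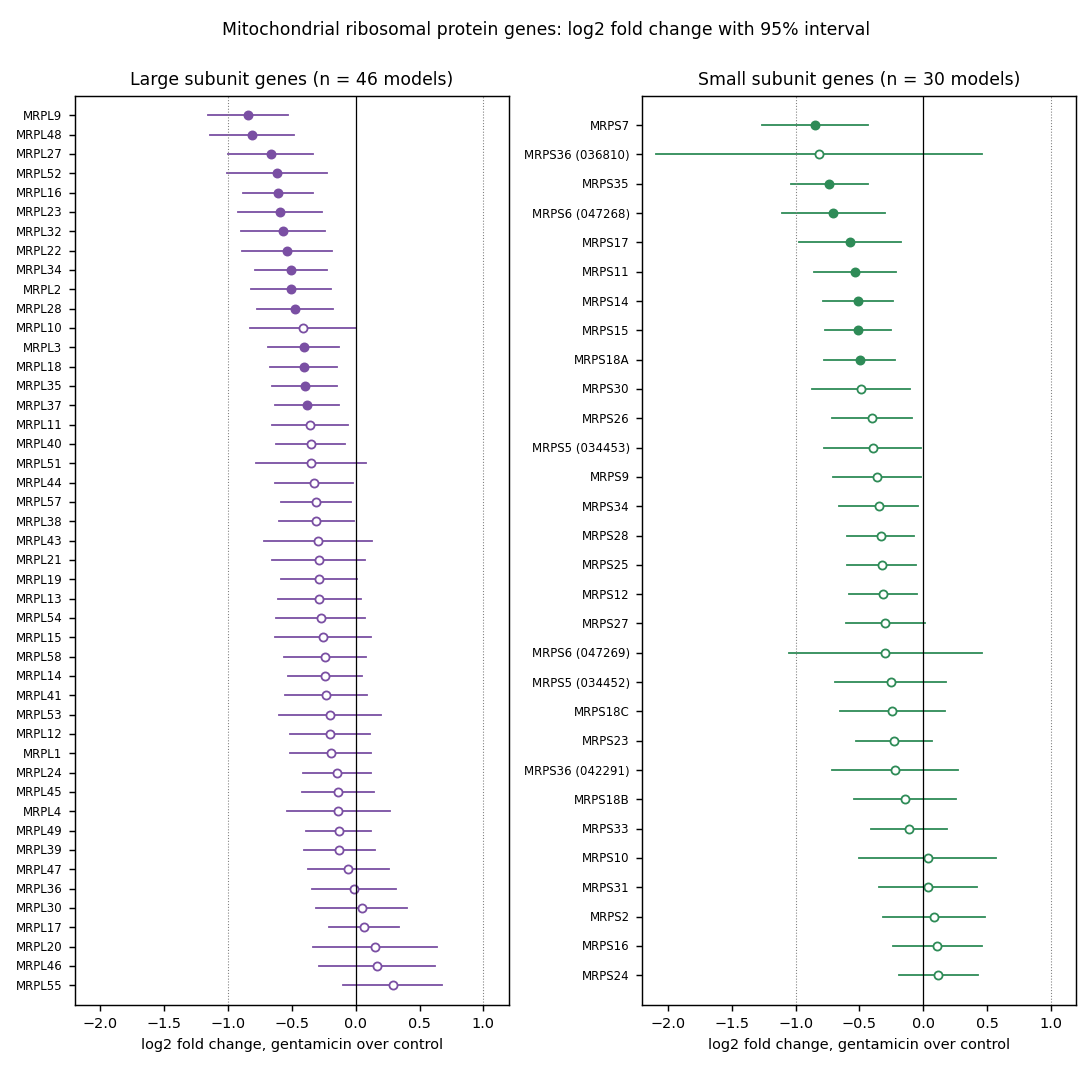
Log2 fold change, gentamicin over control with TMM scaling, of each tested gene model of the large subunit (left, n = 46) and the small subunit (right, n = 30). Points are estimates, bars 95% intervals, filled points are the 23 called lower, dotted lines mark 2-fold, and digits in brackets end the gene identifier where a symbol has more than 1 model. Most points lie between 0 and -1 and no filled point lies right of 0.

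Large and small subunit genes had similar medians. In the large subunit 15 of 46 members were lower (32.6%) with a median log2 fold change of -0.29, which became 0.02 under total counts. In the small subunit 8 of 30 were lower (26.7%) with a median of -0.33, which became -0.01 under total counts. Of all genes tested 13.4% were lower. The difference between the subunits was not tested. MRPS30 and MRPS18A, named as small subunit proteins, sit in the large subunit of the mammalian mitoribosome. Assigned by structure, and without MRPS36, 16 of 48 large (33.3%) and 7 of 26 small subunit members (26.9%) were lower.

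Members were also grouped by descent, following the systematic names of ribosomal proteins, in which MRPS18A and MRPS18B count as specific to mitochondria although they resemble a bacterial protein. Of the 46 tested members with a bacterial counterpart 18 were lower (39.1%), with a median log2 fold change of -0.33. Of the 28 specific to mitochondria 5 were lower (17.9%), with a median of -0.30. The share of 17.9% was near the 13.4% of all genes and the 15.5% of genes at the members' level, and that of 39.1% was above both. The medians thus differed less than the shares of calls, and no test was made between the classes.

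The ratio between the subunits also stayed within a narrow range. Counts of large subunit members were 1.67 and 1.76 times those of small subunit members in gentamicin kidneys, against 1.71, 1.71 and 1.64 times in control kidneys. The groups overlapped in this ratio, which does not depend on library scaling.

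Summed over the 78 members, the mitoribosome genes stood at 2518 and 2353 CPM in gentamicin kidneys, against 3209, 2858 and 3096 CPM in control kidneys under TMM. Both gentamicin libraries lay below all 3 control libraries. The means were 2435 ± 116 CPM in gentamicin kidneys and 3054 ± 179 CPM in control kidneys (SD, n = 2 and n = 3), a sum 20.3% lower in gentamicin kidneys. As a share of all counts, however, the members took 0.279% and 0.276% in gentamicin kidneys and 0.288%, 0.261% and 0.288% in control kidneys, where the groups overlapped and the ratio of the means was 0.995. Without MRPS28, whose counts are uncertain, the TMM-scaled sum was 20.3% lower in gentamicin kidneys as well.

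**Figure D2:**
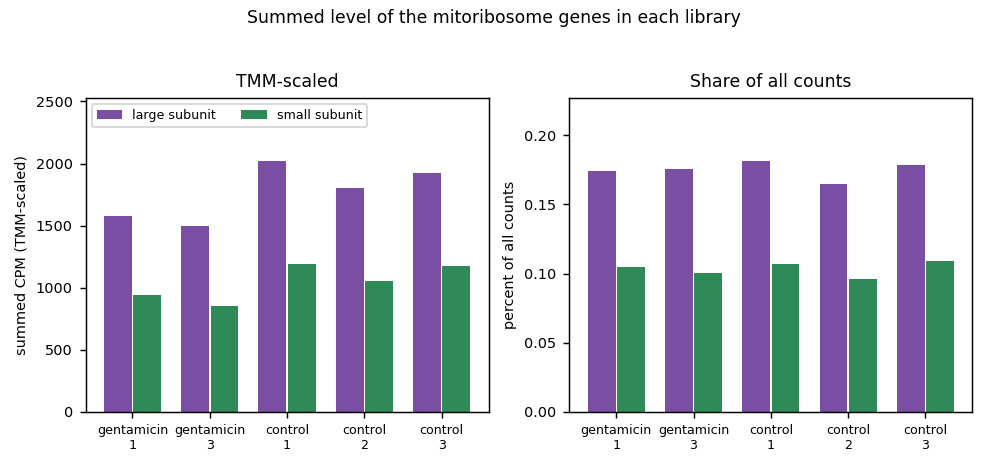
Summed level of the large subunit (purple) and small subunit (green) members in each library, as TMM-scaled CPM (left) and as percent of all counts (right). On the TMM scale both gentamicin libraries are below the 3 control libraries for each subunit, and as a share of all counts the groups overlap.

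Among the large subunit members, MRPL9 fell furthest. MRPL9, with a counterpart in the bacterial large subunit (AMEX60DDU001011262, unplaced scaffold C0105161, 12339 to 47061, plus strand), stood at 23.1 and 25.4 CPM in gentamicin kidneys, against 44.8, 46.8 and 39.02 CPM in control kidneys. The groups were well apart, and the log2 fold change was -0.84 ± 0.13 (SE; adjusted p = 0.00251, edgeR). MRPL48, a protein specific to the mitoribosome (AMEX60DD049786, chromosome arm 7q, 947320547 to 947438714, plus strand), stood at 17.0 and 14.2 CPM in gentamicin kidneys and at 27.4, 26.0 and 28.8 CPM in control kidneys. Its log2 fold change was -0.81 ± 0.14 (SE; adjusted p = 0.00412, edgeR), and without gentamicin library 3 the adjusted p was 0.0577.

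MRPL27, whose bacterial counterpart reaches towards the catalytic centre of the large subunit (AMEX60DD030959, 3q, 1053728253 to 1053786491, minus strand), had 32.9 and 29.0 CPM in gentamicin kidneys, against 56.2, 45.1 and 46.0 CPM in control kidneys. All gentamicin values were below all control values, with a log2 fold change of -0.67. MRPL16, whose bacterial counterpart lies near the site where the incoming tRNA binds (AMEX60DDU001008105, scaffold C0054673, 587528 to 697324, minus strand), had 52.1 and 47.0 CPM in gentamicin kidneys and 79.7, 76.6 and 69.9 CPM in control kidneys. Its log2 fold change was -0.61. MRPL52, specific to the mitoribosome (AMEX60DD009335, 13q, 34080127 to 34139952, plus strand), had 22.7 and 20.0 CPM in gentamicin kidneys and 38.7, 27.3 and 32.3 CPM in control kidneys, a log2 fold change of -0.62.

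The call of MRPL27 was lost without gentamicin library 1 or 3 (edgeR adjusted p of 0.052 and 0.115) and that of MRPL16 without gentamicin library 3 (adjusted p = 0.0851). The call of MRPL52 held without control library 2 alone, and without gentamicin libraries 1 and 3 and control libraries 1 and 3 its adjusted p was 0.11, 0.214, 0.0513 and 0.0501.

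Among the small subunit members the largest fall was that of MRPS7, a head protein of the small subunit whose bacterial counterpart starts the assembly of that domain (AMEX60DD030902, 3q, 1037063659 to 1037255186, minus strand). It stood at 17.6 and 12.4 CPM in gentamicin kidneys, against 29.2, 24.5 and 27.2 CPM in control kidneys, with a log2 fold change of -0.85 ± 0.18 (SE; adjusted p = 0.00999, edgeR). Gentamicin library 3 was the lower one, and without it the adjusted p was 0.0941. A model that overlaps MRPS7 on the opposite strand has 722 counts in all, beside 1606 for MRPS7, and without a stated strand setting their reads may not be told apart. MRPS35, specific to the mitoribosome (AMEX60DD006824, 12q, 34099532 to 34400736, plus strand), had 20.5 and 21.2 CPM in gentamicin kidneys and 37.0, 31.6 and 35.5 CPM in control kidneys. Its log2 fold change was -0.74 ± 0.13 (SE; adjusted p = 0.00433, edgeR), and without gentamicin library 1 the adjusted p was 0.0513.

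MRPS6, MRPS17 and MRPS11, all with bacterial counterparts in the small subunit, completed the 5 largest called falls there. MRPS6 (AMEX60DD047268, 7p, 222549475 to 223137522, plus strand) had 17.7 and 14.6 CPM in gentamicin kidneys and 30.8, 25.1 and 22.9 CPM in control kidneys, a log2 fold change of -0.70. MRPS17 (AMEX60DD054322, 9p, 353576241 to 353818048, minus strand) had 24.4 and 20.0 CPM in gentamicin kidneys and 33.9, 27.3 and 37.8 CPM in control kidneys, a log2 fold change of -0.57. MRPS11 (AMEX60DD004189, 11q, 79539499 to 79847804, minus strand) had 24.9 and 21.3 CPM in gentamicin kidneys and 33.5, 30.7 and 36.1 CPM in control kidneys, a log2 fold change of -0.53. The groups did not overlap for any of the 3, and each call was lost when either gentamicin library was left out. Without libraries 1 and 3 the edgeR adjusted p was 0.0624 and 0.172 for MRPS6, 0.0959 and 0.285 for MRPS17, and 0.0682 and 0.195 for MRPS11. That of MRPS17 was also lost without control library 1 (0.0601) or 3 (0.0864).

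**Figure D3:**
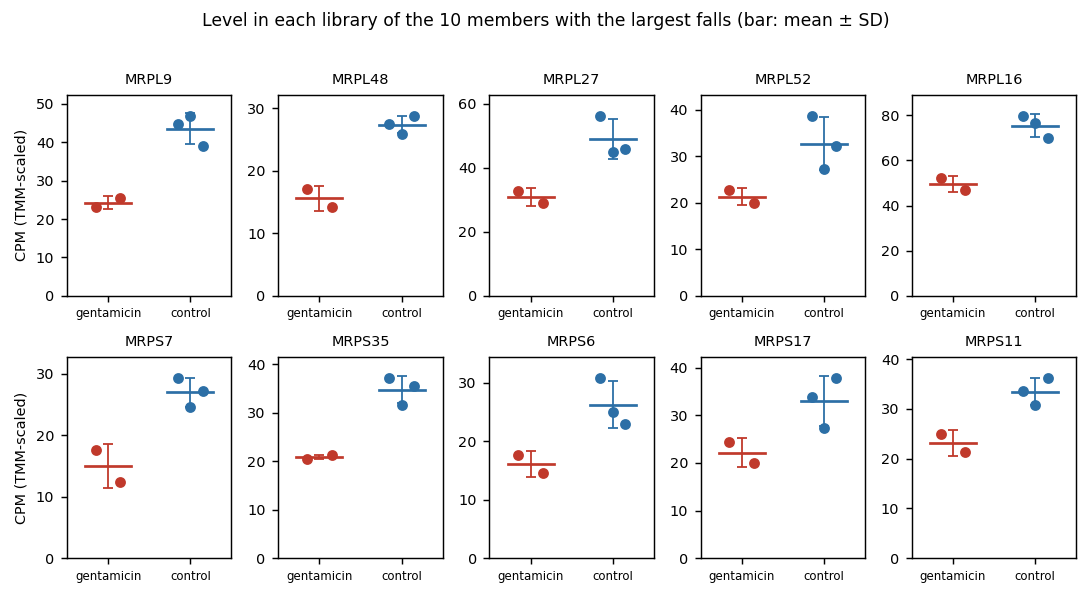
TMM-scaled CPM of the 5 large subunit members (top) and 5 small subunit members (bottom) with the largest called falls, in gentamicin (left, n = 2) and control (right, n = 3) libraries. Points are libraries, lines means, bars ± SD, and in each panel both gentamicin points lie below all control points.

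MRPS11 overlaps MRPL46 (AMEX60DD004190, plus strand) on 11q by 89955 bases on opposite strands. MRPL46 had 36.3 and 28.5 CPM in gentamicin kidneys and 32.2, 22.2 and 32.1 CPM in control kidneys, and its log2 fold change of 0.17 was not called. Of the 78 members 25 overlap another model with counts, none of them on the same strand. Among the 51 tested members without such an overlap 15 were lower (29.4%) with a median log2 fold change of -0.31. Of the 25 with one 8 were lower (32%) with a median of -0.30, beside 13.4% of all genes lower.

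Several members with a known role beyond the structure of the ribosome, or with a place of their own in it, were described whatever their values. MRPL12, which in human cells also binds the mitochondrial RNA polymerase, had 56.0 and 54.6 CPM in gentamicin kidneys and 66.3, 54.4 and 70.0 CPM in control kidneys. The groups overlapped and the log2 fold change was -0.20 with a 95% interval of -0.51 to 0.11. MRPL36, the counterpart of a small zinc-binding bacterial protein, had 31.4 and 29.3 CPM in gentamicin kidneys and 33.5, 26.3 and 32.0 CPM in control kidneys. Its interval was -0.34 to 0.32. A model that overlaps MRPL36 on the opposite strand has 4414 counts in all, beside 2307 for MRPL36, and their reads may not be told apart. MRPL58, also known as ICT1, a peptide-releasing factor built into the large subunit, had 16.6 and 17.5 CPM in gentamicin kidneys and 21.8, 19.7 and 19.0 CPM in control kidneys. Its groups did not overlap, but its interval of -0.56 to 0.08 included 0.

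MRPL3, a protein of the bacterial-type core, had 27.7 and 26.3 CPM in gentamicin kidneys and 37.9, 33.9 and 35.8 CPM in control kidneys, and fell with a log2 fold change of -0.41 (edgeR adjusted p = 0.0398). Without gentamicin library 1 or 3 or control library 1 or 3 its adjusted p was 0.149, 0.224, 0.0787 and 0.0582. MRPL44, with a fold like that of an RNase III enzyme, had 32.4 and 32.0 CPM in gentamicin kidneys and 38.99, 36.7 and 45.3 CPM in control kidneys, and was not called (log2 fold change -0.33). MRPL57 had 31.7 and 31.2 CPM in gentamicin kidneys and 41.0, 36.6 and 39.3 CPM in control kidneys, and was not called (log2 fold change -0.31).

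MRPS12, the counterpart of the bacterial protein whose mutations give resistance to streptomycin, another aminoglycoside, had 46.5 and 41.1 CPM in gentamicin kidneys. It had 54.0, 52.7 and 56.9 CPM in control kidneys. The groups did not overlap, and the log2 fold change of -0.32 was not called (adjusted p = 0.0823, edgeR). MRPS34 had 27.2 and 24.4 CPM in gentamicin kidneys and 36.2, 31.0 and 31.4 CPM in control kidneys, and was not called either (log2 fold change -0.35). MRPS22, whose model has 45 counts in all, and MRPL42 were too low to be tested. MRPS22 had 7 and 18 counts in gentamicin libraries and 9, 5 and 6 in control libraries, and MRPL42 had 5 and 8 in gentamicin libraries and 10, 7 and 4 in control libraries.

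MRPS30 and MRPS18A, the pair that belongs to the large subunit by structure, both stood lower in gentamicin kidneys in every library. MRPS30 had 25.05 and 25.02 CPM in gentamicin kidneys and 41.8, 28.9 and 34.8 CPM in control kidneys, and was not called (log2 fold change -0.49, adjusted p = 0.0664, edgeR). MRPS18A had 57.9 and 56.0 CPM in gentamicin kidneys and 88.4, 74.97 and 78.2 CPM in control kidneys and fell with a log2 fold change of -0.50 (adjusted p = 0.0165, edgeR). Without gentamicin libraries 1 and 3 the adjusted p of MRPS18A was 0.097 and 0.127.

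The 3 vertebrate relatives of one bacterial protein, MRPS18A, MRPS18B and MRPS18C, were set beside each other. MRPS18B had 72.5 and 65.2 CPM in gentamicin kidneys and 87.9, 59.4 and 80.6 CPM in control kidneys. Its groups overlapped, with a 95% interval of the log2 fold change of -0.54 to 0.25. A model that overlaps MRPS18B on the opposite strand has 2847 counts in all, beside 5483 for MRPS18B, and their reads may not be told apart. MRPS18C had 11.96 and 13.4 CPM in gentamicin kidneys and 13.3, 14.1 and 17.6 CPM in control kidneys, with an interval of -0.65 to 0.17. Differences between the 3 in their fold changes were not tested, and their intervals overlapped.

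Under total counts the log2 fold changes of MRPL12, MRPL36, MRPL58, MRPL57, MRPS12, MRPS18B and MRPS18C were positive, between 0.0017 and 0.31. The median of all genes under that scaling was 0.33.

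Some members are represented by more than 1 model. MRPS5 has 2 models on 4p, one with the C-terminal domain (minus strand) and one with the N-terminal domain (plus strand). They lie 82780 bases apart on opposite strands, and whether they are parts of 1 gene was not tested. The C-terminal model had 10.7 and 9.3 CPM in gentamicin kidneys and 13.8, 10.6 and 11.4 CPM in control kidneys, and the N-terminal model 9.8 and 8.9 CPM in gentamicin kidneys and 12.8, 11.998 and 12.1 CPM in control kidneys. Neither was called, with log2 fold changes of -0.26 and -0.40. The second MRPS6 model (AMEX60DD047269, minus strand) lies inside the first and had 3.6 and 2.0 CPM in gentamicin kidneys and 3.6, 3.3 and 3.5 CPM in control kidneys, and was not called.

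MRPS36, which in mammals and yeast is now known as a subunit of the 2-oxoglutarate dehydrogenase complex rather than of the mitoribosome, also has 2 models. The one on 6p had 8.3 and 6.1 CPM in gentamicin kidneys and 8.3, 8.1 and 8.8 CPM in control kidneys. The one on scaffold C0197536 had 0.48 and 0.73 CPM in gentamicin kidneys and 0.73, 1.31 and 1.16 CPM in control kidneys. Neither was called, and the 95% interval of the second, -2.09 to 0.46, was the widest of the members. With the models of a symbol summed before the fit, 23 members were again lower (31.5%, beside 15% of all genes) and none higher. The main models of MRPL4 (15.3 and 20.4 CPM in gentamicin kidneys, 22.0, 17.7 and 19.3 CPM in control kidneys) and MRPS25 (39.9 and 37.4 CPM in gentamicin kidneys, 50.4, 45.1 and 49.9 CPM in control kidneys) were not called.

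The descriptions in the deposited table named the same subunit for 58 members and gave none for 19. The exception was MRPS28 (AMEX60DD039975, 5q), the member with the most counts (9678 in all), which is described as Tumor protein D52 and carries domains of both proteins. It had 119.8 and 105.1 CPM in gentamicin kidneys and 147.3, 138.6 and 139.3 CPM in control kidneys, and how much of this belongs to MRPS28 is not known.

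Levels per gene length, as FPKM deposited by the authors (fragments divided by gene length and library depth), spanned 27.5-fold among the tested members in control kidneys. The median was 13.3 FPKM in gentamicin kidneys and 16.43 FPKM in control kidneys, where the median coefficient of variation of the members' CPM over the 3 controls was 8.8%. MRPL37 was at the top, with 50.6 and 47.2 FPKM in gentamicin kidneys and 64.3, 60.8 and 65.8 FPKM in control kidneys. MRPS15 followed with 41.6 and 37.1 FPKM in gentamicin kidneys and 56.5, 55.9 and 55.3 FPKM in control kidneys, and MRPL23 with 42.1 and 31.7 FPKM in gentamicin kidneys and 55.7, 55.9 and 54.9 FPKM in control kidneys. In control kidneys MRPL37 lay above both in every library, whereas MRPS15 and MRPL23 overlapped.

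These 3 were also called lower by counts. Their log2 fold changes were -0.38 for MRPL37, -0.51 for MRPS15 and -0.59 for MRPL23 (edgeR adjusted p of 0.0333, 0.0116 and 0.0167). Without gentamicin library 3 the adjusted p was 0.213, 0.121 and 0.14, and that of MRPL37 was also 0.114, 0.0525 and 0.0646 without gentamicin library 1 and control libraries 1 and 3.

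Next in the order of control levels came MRPL52, at 34.8 and 30.9 FPKM in gentamicin kidneys and 59.7, 41.9 and 49.3 FPKM in control kidneys. MRPS18A had 34.6 and 33.6 FPKM in gentamicin kidneys and 53.1, 44.8 and 46.4 FPKM in control kidneys, and overlapped with MRPL52 in control kidneys. MRPS18B, the third highest of the small subunit, had 38.5 and 34.8 FPKM in gentamicin kidneys and 46.9, 31.5 and 42.5 FPKM in control kidneys. At the low end stood MRPL57, with 1.88 and 1.86 FPKM in gentamicin kidneys and 2.45, 2.18 and 2.32 FPKM in control kidneys, for which the table gives a gene length of 16468 bases. MRPL47 was the second lowest of the large subunit, at 4.70 and 4.94 FPKM in gentamicin kidneys and 4.81, 4.61 and 5.56 FPKM in control kidneys, and its groups overlapped. In the small subunit the scaffold model of MRPS36 (1.21 and 1.85 FPKM in gentamicin kidneys, 1.87, 3.32 and 2.91 FPKM in control kidneys) and the longer MRPS6 model (2.07 and 1.71 FPKM in gentamicin kidneys, 3.61, 2.93 and 2.66 FPKM in control kidneys) were lowest.

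The median level in control kidneys was 21.1 FPKM for large and 13.8 FPKM for small subunit members, beside 98.5 FPKM for nuclear-encoded subunits of the respiratory chain and 185.3 FPKM for cytosolic ribosomal proteins. The level of a model rests on its annotated length, and the deposited FPKM carry a scaling near that of TMM.

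**Figure D4:**
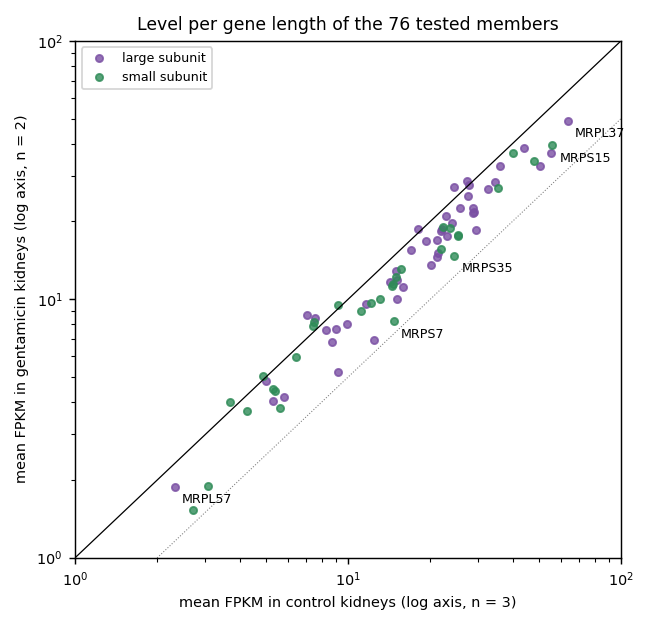
Mean deposited FPKM of the 76 tested members in gentamicin kidneys (vertical log axis, n = 2) against control kidneys (horizontal log axis, n = 3), large subunit in purple and small subunit in green. The solid line marks equal levels and the dotted line a level 2-fold lower in gentamicin kidneys, and all points lie above the dotted line while most lie below the solid one.

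The mitoribosome also contains proteins without an MRP name, and 5 of these were tested. PTCD3, a pentatricopeptide repeat protein of the small subunit, went the other way from the called members. It had 70.8 and 71.1 CPM in gentamicin kidneys and 53.6, 48.9 and 49.7 CPM in control kidneys, and it rose with a log2 fold change of 0.48 ± 0.11 (SE; adjusted p = 0.0121, edgeR). Without gentamicin library 1 or 3 the adjusted p was 0.08 and 0.088.

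None of the other 4 was called. DAP3, a GTP-binding protein of the small subunit, had 33.4 and 33.1 CPM in gentamicin kidneys and 41.5, 45.7 and 38.2 CPM in control kidneys, with a log2 fold change of -0.33. CHCHD1 had 33.2 and 27.98 CPM in gentamicin kidneys and 42.5, 33.5 and 34.4 CPM in control kidneys. AURKAIP1 had 27.3 and 23.6 CPM in gentamicin kidneys and 27.1, 22.0 and 29.0 CPM in control kidneys, with overlapping groups. GADD45GIP1, a large subunit protein near the exit of the nascent chain, had 59.7 and 47.9 CPM in gentamicin kidneys and 63.9, 51.6 and 69.0 CPM in control kidneys, also with overlapping groups. The median log2 fold change of the 5 was -0.19, and 0.12 under total counts.

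The factors that assemble the mitoribosome gave few calls. Of 39 tested models of assembly factors 4 were lower (10.3%, beside 13.4% of all genes) and 1 was higher, with a median log2 fold change of -0.30 that became 0.02 under total counts. YBEY, an endoribonuclease of ribosomal RNA maturation, had 15.3 and 13.5 CPM in gentamicin kidneys and 23.8, 18.5 and 21.7 CPM in control kidneys and fell with a log2 fold change of -0.57 (edgeR adjusted p = 0.0337). SPG7, a subunit of the m-AAA protease that in mouse and yeast matures MRPL32, had 27.7 and 36.9 CPM in gentamicin kidneys and 49.9, 43.1 and 43.9 CPM in control kidneys and fell with a log2 fold change of -0.50 (edgeR adjusted p = 0.0465). MRM1, a methyltransferase of the large mitochondrial ribosomal RNA, had 41.3 and 39.1 CPM in gentamicin kidneys and 25.8, 23.3 and 28.3 CPM in control kidneys and rose with a log2 fold change of 0.64 (edgeR adjusted p = 0.00786). Without gentamicin library 1 or 3 the adjusted p was 0.111 and 0.227 for YBEY, 0.31 and 0.0452 for SPG7, and 0.0754 and 0.053 for MRM1. Without control library 1, 2 or 3 it was 0.0856, 0.0629 and 0.0612 for SPG7, and without control library 1 or 3 it was 0.0651 and 0.0628 for YBEY.

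Of 53 tested models of mitochondrial translation and tRNA factors 7 were lower (13.2%, near the 13.4% of all genes) and 1 was higher, with a median log2 fold change of -0.18 that became 0.14 under total counts. HSD17B10, a dehydrogenase that is also a subunit of mitochondrial RNase P, had 118.7 and 106.4 CPM in gentamicin kidneys and 616.4, 382.0 and 373.3 CPM in control kidneys, a log2 fold change of -2.02 (edgeR adjusted p = 0.00131). CARS2, the mitochondrial cysteinyl-tRNA synthetase, had 7.9 and 9.2 CPM in gentamicin kidneys and 20.5, 21.7 and 13.6 CPM in control kidneys, a log2 fold change of -1.13 (edgeR adjusted p = 0.00862). TUFM, the mitochondrial elongation factor that brings tRNA to the ribosome, had 150.2 and 142.7 CPM in gentamicin kidneys and 219.0, 177.9 and 200.9 CPM in control kidneys, a log2 fold change of -0.44 (edgeR adjusted p = 0.0326). PNPT1, a mitochondrial polynucleotide phosphorylase, rose, with 21.6 and 27.0 CPM in gentamicin kidneys and 12.6, 7.8 and 13.4 CPM in control kidneys (log2 fold change 1.11, edgeR adjusted p = 0.0111). LRPPRC, which stabilises mitochondrial mRNAs, had 76.9 and 95.6 CPM in gentamicin kidneys and 96.5, 69.4 and 76.2 CPM in control kidneys and was not called.

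Of these, HSD17B10 was called whichever library was left out. Without gentamicin library 1 or 3 the adjusted p of CARS2 was 0.0954 and 0.0594 and that of TUFM 0.129 and 0.188, and that of PNPT1 was 0.117 without gentamicin library 3. Without control library 1 or 3 that of TUFM was 0.0623 and 0.0571.

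Of 27 tested models of factors that express or regulate mitochondrial DNA 2 were lower (7.41%) and 3 higher (11.1%), both shares below those of all genes, with a median log2 fold change of -0.03 that became 0.29 under total counts. MYC, a transcription factor that promotes ribosome production, had 59.0 and 55.0 CPM in gentamicin kidneys and 23.4, 24.1 and 37.9 CPM in control kidneys and rose with a log2 fold change of 1.0015 (edgeR adjusted p = 0.0118). PPRC1, a coactivator of nuclear genes for mitochondria, had 59.1 and 62.0 CPM in gentamicin kidneys and 30.9, 26.1 and 46.1 CPM in control kidneys and rose with a log2 fold change of 0.82 (edgeR adjusted p = 0.0368). MGME1, an exonuclease of mitochondrial DNA maintenance, fell, with 6.8 and 6.9 CPM in gentamicin kidneys and 29.0, 23.0 and 20.4 CPM in control kidneys (log2 fold change -1.81, edgeR adjusted p = 0.000298). POLG, the mitochondrial DNA polymerase, fell, with 9.3 and 9.6 CPM in gentamicin kidneys and 17.0, 13.8 and 13.8 CPM in control kidneys (log2 fold change -0.66, edgeR adjusted p = 0.0259).

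The remaining model called higher was that of YY1, a zinc-finger transcription factor, with 44.2 and 47.8 CPM in gentamicin kidneys and 31.2, 30.5 and 36.6 CPM in control kidneys (log2 fold change 0.49, edgeR adjusted p = 0.0252). Its adjusted p was 0.0946 and 0.179 without gentamicin library 1 or 3, 0.0537 and 0.064 without control library 1 or 2, 0.0744 with the library number as a block, and 0.0809 by limma on unfiltered FPKM. GABPA, the DNA-binding subunit of GA-binding protein, had 43.4 and 38.2 CPM in gentamicin kidneys and 33.6, 27.4 and 30.1 CPM in control kidneys. Its groups did not overlap, and its adjusted p was 0.0509 (edgeR, log2 fold change 0.43). The adjusted p of GABPA was 0.034 without control library 1 and 0.0257 without a filter on low counts. Against this, it was 0.125 and 0.108 without control library 2 or 3, 0.133 with the library number as a block, and 0.147 by limma on unfiltered FPKM. Without gentamicin library 1 or 3 the log2 fold change of GABPA was 0.33 and 0.52. Under total counts both were called higher (0.81 for YY1 and 0.74 for GABPA on the log2 scale).

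Without gentamicin library 1 or 3 the adjusted p of MYC was 0.0982 and 0.0777, that of PPRC1 0.156 and 0.193, and that of POLG 0.154 and 0.135. Without control library 1 or 2 that of PPRC1 was 0.0844 and 0.0519, and without control library 1 that of POLG was 0.0514. MGME1 was called whichever library was left out.

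TFAM, POLRMT, NRF1 and PPARGC1A were not called. TFAM, which packages mitochondrial DNA and starts its transcription, had 14.8 and 14.7 CPM in gentamicin kidneys and 18.1, 17.5 and 19.0 CPM in control kidneys (95% interval of the log2 fold change -0.63 to 0.01). POLRMT, the mitochondrial RNA polymerase, had 18.8 and 17.8 CPM in gentamicin kidneys and 20.3, 17.2 and 18.5 CPM in control kidneys (interval -0.36 to 0.30). NRF1, a transcription factor of many nuclear genes for mitochondria, had 16.7 and 18.9 CPM in gentamicin kidneys and 17.3, 16.8 and 19.9 CPM in control kidneys (interval -0.36 to 0.33). PPARGC1A, a coactivator of mitochondrial biogenesis, had 27.7 and 37.1 CPM in gentamicin kidneys and 46.1, 41.7 and 38.1 CPM in control kidneys, with an interval of -0.74 to -0.003 and an adjusted p of 0.129 (edgeR).

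The subunits of the respiratory chain, whose core proteins the mitoribosome makes, had a median further from 0 than the mitoribosome itself, and no test was made between these groups of genes. Of 85 tested models of nuclear-encoded subunits of the chain and of ATP synthase 72 were lower (84.7%) and 1 was higher, with a median log2 fold change of -0.77, beside -0.31 for the mitoribosome members, and under total counts 50 were lower with a median of -0.45. The 2 largest called falls were those of COX4I2, a subunit of cytochrome c oxidase, and COX7A1, another. COX4I2 had 75.4 and 52.4 CPM in gentamicin kidneys and 273.0, 405.0 and 397.6 CPM in control kidneys, a log2 fold change of -2.49 (edgeR adjusted p = 0.000383). COX7A1 had 60.9 and 49.9 CPM in gentamicin kidneys and 200.5, 204.2 and 195.0 CPM in control kidneys, a log2 fold change of -1.85. The 1 model called higher, of COX6B1 (89.0 and 55.7 CPM in gentamicin kidneys, 12.9, 8.7 and 23.2 CPM in control kidneys), was not called without gentamicin library 1 or 3 or control library 1 (edgeR adjusted p of 0.102, 0.0548 and 0.11). With the models of that symbol summed its log2 fold change was -0.12.

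In every library the counts of the 2 groups of genes can be set against each other without any scaling. The members' counts were 0.161 and 0.160 of those of the respiratory chain subunits in gentamicin kidneys, against 0.122, 0.105 and 0.122 in control kidneys. Both gentamicin values lay above all control values, and no test was made on this sum over the members. The proximal tubule markers, given above, were lower in both gentamicin libraries, where this ratio was higher, and their part in it was not tested.

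The proteins of the cytosolic ribosome had a median nearer that of the members. Of 165 tested models with 76 symbols 21 were lower (12.7%, near the 13.4% of all genes) and none was higher. The median log2 fold change was -0.40, which became -0.08 under total counts, and 154 models were negative under TMM and 113 under total counts. Many of these models share a symbol, and their sequences were not compared. Between copies alike in sequence reads can be split or lost, so single values are uncertain. With the models of a symbol summed, 19 of 76 cytosolic symbols were lower and 0 higher. In that fit 15% of all genes and 23 of 73 member symbols were lower, so an excess of falls was not particular to the mitoribosome. RPS12 had 74.7 and 66.4 CPM in gentamicin kidneys and 130.7, 115.5 and 104.1 CPM in control kidneys (log2 fold change -0.73), and a scaffold model of RPL37A had 4.2 and 3.0 CPM in gentamicin kidneys and 7.3, 7.3 and 5.9 CPM in control kidneys (log2 fold change -0.94). Without gentamicin library 3 neither was called (edgeR adjusted p of 0.0701 for RPS12 and 0.212 for RPL37A), and RPL37A also was not called without gentamicin library 1 (0.0634) or control library 2 (0.0761). The number of cytosolic models called lower was 55 without gentamicin library 1 and 0 without gentamicin library 3. The members' counts were 0.0323 and 0.0385 of those of the cytosolic ribosome in gentamicin kidneys and 0.0336, 0.0312 and 0.0343 in control kidneys, where the groups overlapped.

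**Figure D5:**
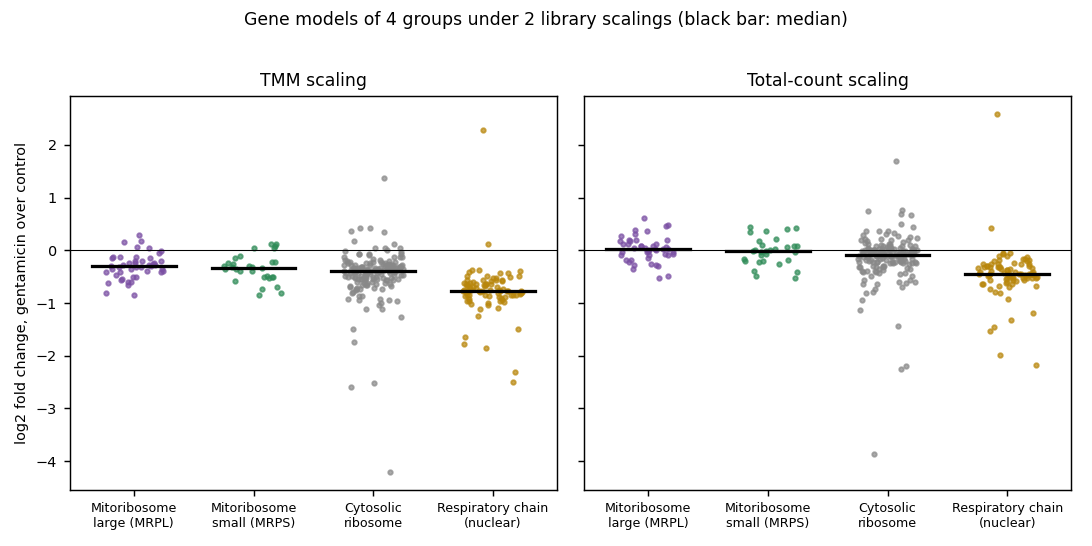
Log2 fold change, gentamicin over control, of the tested gene models of the mitoribosome's large (n = 46) and small subunit (n = 30), the cytosolic ribosome (n = 165) and the nuclear-encoded respiratory chain (n = 85), with TMM scaling (left) and total-count scaling (right). Points are gene models and black bars medians. The mitoribosome medians are near -0.3 on the left and near 0 on the right, and the respiratory chain median is below 0 in both.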

How the data were processed

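TRIzol was used to extract total RNA and an NEBNext Ultra kit to make the libraries, per the labels' protocols. Tools named in the submitters' processing notes are HISAT2 2.0.5, featureCounts 1.5.0-p3, fastp, CASAVA 2.19 and DESeq2 1.20.0. Neither the build of the genome nor the strandedness used in counting is given in the sources used here. The authors deposited 2 tables over the same genes, one of raw read counts and one of FPKM. Their titles are swapped, and each was used by what its values are. The deposited FPKM equal the counts per length and total times 1 factor per library (0.884 and 0.839 for gentamicin, 1.09, 1.07 and 1.05 for control), and these factors times the TMM factors give 0.974 to 0.986.

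Libraries were grouped by their labels. Counts were fitted in edgeR 4.0.16 (R 4.3.3) with filterByExpr (minimum count 10, minimum total 15), TMM scaling, robust quasi-likelihood dispersions and the group as the only term; tests were two-sided and adjusted by Benjamini-Hochberg over 22006 genes, with calls at an adjusted p under 0.05. Standard errors of log2 fold changes were taken as their size over the root of F, and 95% intervals use the model's degrees of freedom. The procedure was tested on simulated data with few changed genes, balanced between rises and falls, which cannot test the choice of scaling. Alternatives were DESeq2 1.42.0, DESeq2 size factors, total counts, other filters, the library number as a block, each library left out, summed models of a symbol, and limma 3.58.1 on the log2 of the deposited FPKM plus 1 or 0.1 (unfiltered, or with a mean of 0.5 FPKM or more).

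The members are gene models whose name starts with MRPL or MRPS and a digit. Companion lists and markers were chosen by symbol. Members and lists were chosen with earlier results of these data known. Named were the 5 largest called falls and rises of each subunit without overlap, the 3 highest and 2 lowest levels per length in control, symbols with several models, and a list of members and companions given whatever their values, with the 2 largest called falls and rises of each companion list. MRPL17, MRPL46, MRPL55, MRPS24, MRPS28, YY1 and GABPA were named after their values were seen. For models with a small count of reads the precision is limited: 3 counts correspond to 0.183 to 0.219 CPM.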

Additional observations from a re-analysis of the deposited data

How the results depend on the processing

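The calls rest on 2 gentamicin and 3 control libraries, and the direction of the members as a group on the scaling. Under total counts the large subunit had 2 members lower, 2 higher and a median log2 fold change of 0.0242, the small subunit 2 lower, 1 higher and a median of -0.0111, and the summed member level had a log2 ratio of -0.0077. The same setting gave 0 lower and 3 higher for assembly factors, and 4 and 6 for translation and tRNA factors. For factors of mitochondrial DNA expression it gave 1 and 5, and for the cytosolic ribosome 1 and 2. This setting raised all genes by a median of 0.32 on the log2 scale, to a median of 0.33. Models with a small negative value under TMM therefore turn positive whatever the gene. It turned the sign of 18 named models that were not called: MRPL47 (AMEX60DDU001002703, 0.26), MRPL57 (AMEX60DD036045, 0.0095), MRPS18B (AMEX60DD010976, 0.18), MRPL4 (AMEX60DD031868, 0.19), MRPS36 (AMEX60DD042291, 0.0935), MRPS5 (AMEX60DD034452, 0.0632), MRPS6 (AMEX60DD047269, 0.0142), MRPL12 (AMEX60DD031463, 0.12), MRPL36 (AMEX60DD038686, 0.31), MRPL58 (AMEX60DD030921, 0.0816), MRPS12 (AMEX60DD024298, 0.0017), MRPS18C (AMEX60DD043856, 0.0784), AURKAIP1 (AMEX60DD051265, 0.29), CHCHD1 (AMEX60DD051852, 0.0522), GADD45GIP1 (AMEX60DD031977, 0.12), NRF1 (AMEX60DD008025, 0.31), POLRMT (AMEX60DD013667, 0.29) and TFAM (AMEX60DD052489, 0.0129).

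With each library left out in turn, the number lower was 2 to 14 in the large and 1 to 9 in the small subunit, 0 to 3 for assembly factors, 2 to 8 for translation and tRNA factors, 1 to 2 for factors of mitochondrial DNA expression and 0 to 55 for the cytosolic ribosome. The number higher was 0 to 1 for subunits with other names, assembly factors, translation and tRNA factors, the cytosolic ribosome and the respiratory chain, and 0 to 3 for factors of mitochondrial DNA expression. The sign turned for MRPL47 (AMEX60DDU001002703, -0.12 to 0.0122), MRPL4 (AMEX60DD031868, -0.35 to 0.0575), MRPS6 (AMEX60DD047269, -0.77 to 0.0681), MRPL36 (AMEX60DD038686, -0.12 to 0.0476), AURKAIP1 (AMEX60DD051265, -0.15 to 0.0714), LRPPRC (AMEX60DD035957, -0.0683 to 0.25), NRF1 (AMEX60DD008025, -0.11 to 0.0758) and POLRMT (AMEX60DD013667, -0.0936 to 0.0271), none of them called.

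Without a filter on low counts MRPL36 (AMEX60DD038686) was at 0.0025 and NRF1 (AMEX60DD008025) at 0.0009, the cytosolic ribosome had 57 models lower and 1 higher and the respiratory chain 0 higher, and DESeq2 called 53 cytosolic models lower. With limma on log2(FPKM + 1) or log2(FPKM + 0.1) 1 cytosolic model was higher. With limma on log2(FPKM + 1) and no filter 3 large and 2 small subunit members were lower, 6.41% of members beside 4.58% of all genes. In that fit 0 assembly factors, 3 translation and tRNA factors, 1 factor of mitochondrial DNA expression and 4 cytosolic models were lower. Higher there were 0 translation and tRNA factors, 0 factors of mitochondrial DNA expression, 1 cytosolic model and 2 respiratory chain models. With the models of a symbol summed 11 translation and tRNA factors were lower and 0 respiratory chain genes higher, with COX6B1 (AMEX60DD016179) at -0.12. The cause of these changes was not tested.

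The labels do not say whether equal library numbers pair the samples. The 2 shared numbers had correlations of their deviations of -0.0363 and 0.0621, and control library 2, with no partner, had 0.0975 and -0.0975. The deviations of 2 gentamicin libraries from their mean mirror each other, so these correlations cannot decide on pairing. With the replicate block 8 large and 9 small subunit members were lower, 16 of these 17 among the 23 called without it. The 17 were 22.4% of members, beside 10.8% of all genes called lower in that fit. Subunits with other names had 0 higher, assembly factors 2 lower, factors of mitochondrial DNA expression 1 lower and the respiratory chain 0 higher. Under DESeq2 size factors in edgeR and a mean CPM of at least 1 the counts of members lower were 23 each.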

Other observations

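Of the 78 symbols in a catalogue of mammalian MRPL and MRPS genes, 3 (MRPL33, MRPL50 and MRPS21) had no model of that name. The descriptions in the deposited table, however, name a mitoribosome protein for 3 models with another or no name, which were left out of all counts above. An unnamed model described as MRPL33, on 4q, had 18.4 and 17.4 CPM in gentamicin kidneys and 26.9, 25.3 and 27.3 CPM in control kidneys, with a log2 fold change of -0.57 (edgeR adjusted p = 0.013). An unnamed model described as MRPL9, on 1p, had 21.1 and 19.1 CPM in gentamicin kidneys and 35.9, 34.2 and 29.9 CPM in control kidneys, with a log2 fold change of -0.73 (edgeR adjusted p = 0.00584), near the -0.84 of the scaffold model named MRPL9. A model described as MRPS21, AMEX60DD015098 on 1p, had 2.4 and 1.4 CPM in gentamicin kidneys and 2.9, 3.6 and 3.3 CPM in control kidneys, and was not called (log2 fold change -0.80, adjusted p = 0.139, edgeR). All 3 stood lower in both gentamicin libraries than in any control library under TMM, and other scalings were not computed for them.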
